A study of Mus musculus with 2 samples.

Results

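Small leucine-rich proteoglycans are secreted proteins with a core of leucine-rich repeats, many of which carry sulfated sugar chains. They bind collagen fibrils and set how fibrils grow in width and pack, and several of them also bind growth factors such as TGF-beta. Fibroblast-like cells of fat, tendon, skin and bone make most of them. Human decorin and biglycan are also known to bind WISP1, the secreted matricellular protein whose gene was deleted in the cells studied here. The 10 genes described are Dcn, Bgn, Aspn, Fmod, Lum, Prelp, Kera, Omd, Ogn and Podn. They were chosen by name as family members, with earlier results of these data known. Each had exactly 1 transcript cluster (the set of array probes summarised to a single value) whose only platform symbol was that gene, so all 10 were found, among 30142 named genes in all.

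The study compared adipose-derived stromal cells, which are fibroblast-like progenitors cultured from fat, from a Wisp1 KO mouse line and from WT mice. The KO group was a global knockout made by mating mice with floxed Wisp1 exons 1 to 5 to a Cre line, and the labels do not say whether a selection cassette remains. Both groups were of the C57BL/6J background, aged 6 to 10 weeks, and both cultures came from the inguinal fat pad and were grown in medium with 15% serum. The study's title concerns cartilage formation in heterotopic ossification (bone forming outside the skeleton), but the cells measured were stromal cells in growth medium. Each group had 1 array, and how many animals went into a culture is not given in the sources used here.

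Since each group was a single array, no replicate spread could be estimated, nothing was tested, and the number of arrays limits the precision of every value below. Each difference is Wisp1 KO minus WT in log2 units and describes this pair of arrays, not the genotypes. A gene was counted as past the limit when it was at least 25% higher or at least 20% lower in linear terms, which is 0.32 log2 units either way. Values of different genes come from different probes, so no gene's level is set against another's. The arrays had medians of 3.92 in Wisp1 KO and 3.93 in WT and highest values of 13.65 in Wisp1 KO and 13.62 in WT. Wisp1 itself, now named Ccn4, was at 5.40 in Wisp1 KO and 7.79 in WT, 5.25-fold lower, though whether all its probes lie in the deleted exons was not analysed here. The stromal markers Pdgfrb (10.49 in Wisp1 KO, 10.38 in WT), Thy1 (10.43 in Wisp1 KO, 10.34 in WT) and Vim (11.93 in Wisp1 KO, 12.01 in WT) were far above the median on both arrays, while Dpp4 and Nt5e were below it.

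Most of the proteoglycan genes were higher in Wisp1 KO. Of the 10 genes, 7 were past the limit as higher (Ogn, Podn, Lum, Omd, Aspn, Fmod and Kera), 1 as lower (Prelp), and Dcn and Bgn stayed inside it with positive differences. The background was taken from the 15072 named genes whose mean over both arrays reached the median of named genes, 4.65, and of these 3.89% were past the limit as higher and 2.64% as lower. The median over the 10 genes was 0.45, against 0.03 over those 15072 genes. Kera was the only one of the 10 below the median level, and of the other 9 genes 6 were higher and 1 lower. At 1.5-fold, 3 of the 10 were higher (Ogn, Podn and Lum) and none lower, where the background was 0.717% higher and 0.464% lower. None of the 10 reached 2-fold in either direction, where the background was 0.0663% for higher and 0.0995% for lower.

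**Figure D1:**
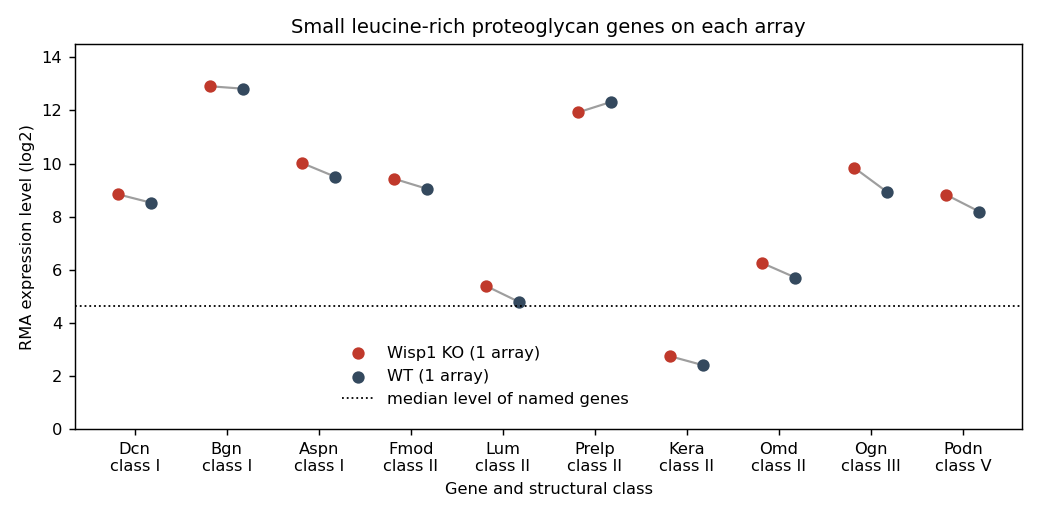
RMA expression level (log2) of the 10 proteoglycan genes on the Wisp1 KO array (red, left of each pair) and the WT array (dark, right), 1 array each and so without error bars, with the median level of named genes as a dotted line. The joining line slopes down from Wisp1 KO to WT for 9 genes and up for Prelp, and Kera lies below the dotted line on both arrays.

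Decorin, biglycan and asporin form class I of the family. Dcn encodes decorin, which coats collagen fibrils, carries a single chondroitin or dermatan sulfate chain and binds TGF-beta. It was at 8.84 in Wisp1 KO and 8.53 in WT, a difference of 0.32 that is 1.24-fold, just short of the limit. Bgn encodes biglycan, the close relative of decorin with a known role in bone mass in mice. It was at 12.91 in Wisp1 KO and 12.82 in WT, a difference of 0.09, and 31.7% of the 15072 genes differed upward by as much or more. Aspn encodes asporin, which has a run of aspartates in place of a sugar chain site and binds TGF-beta and collagen. It was at 10.02 in Wisp1 KO and 9.50 in WT, a difference of 0.52 that only 1.04% of genes matched or passed. The class therefore held differences of 0.09, 0.32 and 0.52, all positive, with 1 of 3 past the limit.

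Class II held differences in both directions. Fmod encodes fibromodulin, which controls collagen cross-linking and fibril width in tendon, and it was at 9.43 in Wisp1 KO and 9.05 in WT (0.38, 1.30-fold). Lum encodes lumican, a keratan sulfate proteoglycan needed for the even fibrils of the cornea and skin. It was at 5.39 in Wisp1 KO and 4.79 in WT, a difference of 0.60 or 1.52-fold. Omd encodes osteoadherin, a keratan sulfate proteoglycan of mineralised matrix, and it was at 6.25 in Wisp1 KO and 5.71 in WT (0.55, 1.46-fold). Kera encodes keratocan of the corneal stroma and was dim on both arrays, at 2.75 in Wisp1 KO and 2.41 in WT (0.34, 1.26-fold). Both values lie below the level filter used for the background, so Kera is outside the 15072 genes it is read against.

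Prelp ran the other way. It encodes PRELP, a member without sugar chains whose basic end binds heparan sulfate and which is thought to tie basement membranes to the collagen beneath. Prelp was at 11.93 in Wisp1 KO and 12.32 in WT, a difference of -0.40 or 1.32-fold lower. Among the 15072 genes, 1.46% were as low or lower, and among the 3177 named genes with a mean level of at least 8, 1.7%. Class II thus had 4 members past the limit as higher and 1 as lower.

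Ogn, the class III member described here, had the largest difference of the 10 genes. It encodes osteoglycin (mimecan), a proteoglycan of bone, cornea and vessel walls that limits fibril width. Ogn was at 9.84 in Wisp1 KO and 8.92 in WT, a difference of 0.92 or 1.89-fold. Counting Ogn itself, 15 of the 15072 genes (0.0995%) reached that difference. Podn, of class V, encodes podocan, a collagen-binding protein that restrains smooth muscle cell growth in mice. It was at 8.82 in Wisp1 KO and 8.19 in WT, a difference of 0.63 or 1.55-fold that 0.531% of genes matched or passed.

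**Figure D2:**
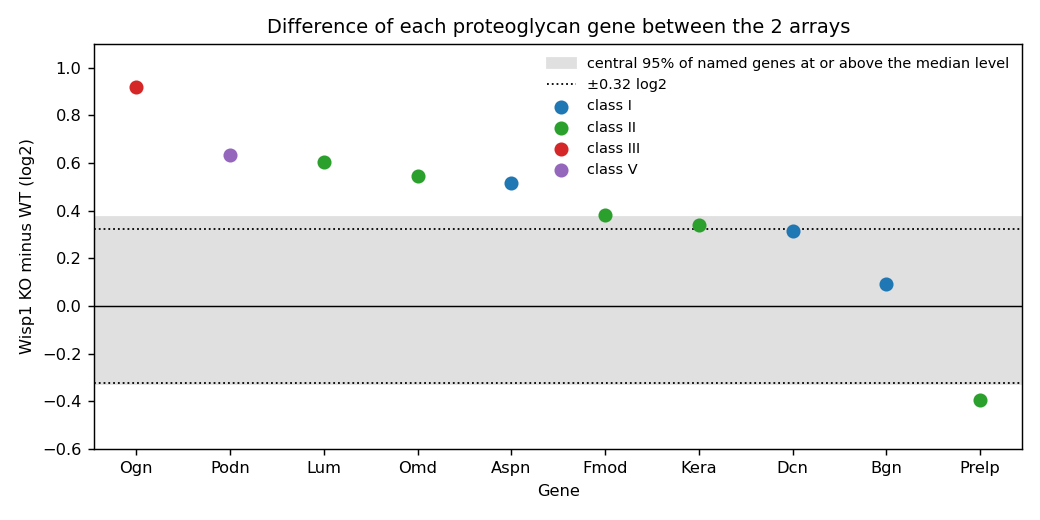
Wisp1 KO minus WT difference (log2) of each proteoglycan gene, coloured by structural class and ordered by size, over the central 95% of the 15072 background genes (grey, from -0.33 to 0.37), with the limit of 0.32 marked by dotted lines. Ogn stands at 0.92, Podn, Lum, Omd and Aspn lie between 0.52 and 0.63, Fmod at 0.38 sits at the edge of the grey band, and Prelp at -0.40 lies below it.

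The higher values were not restricted to dim genes. Of the 7 proteoglycan genes with a mean of at least 8, Ogn, Podn, Aspn and Fmod were past the limit as higher, by 0.38 to 0.92. Dcn, at 1.24-fold, was just short of it. The other two were Bgn, at 0.09, and Prelp, at -0.40. Of the 3177 named genes with a mean of at least 8, 4.72% were past the limit as higher and 3.05% as lower, and 0.0944% differed upward by as much as Ogn or more.

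**Figure D3:**
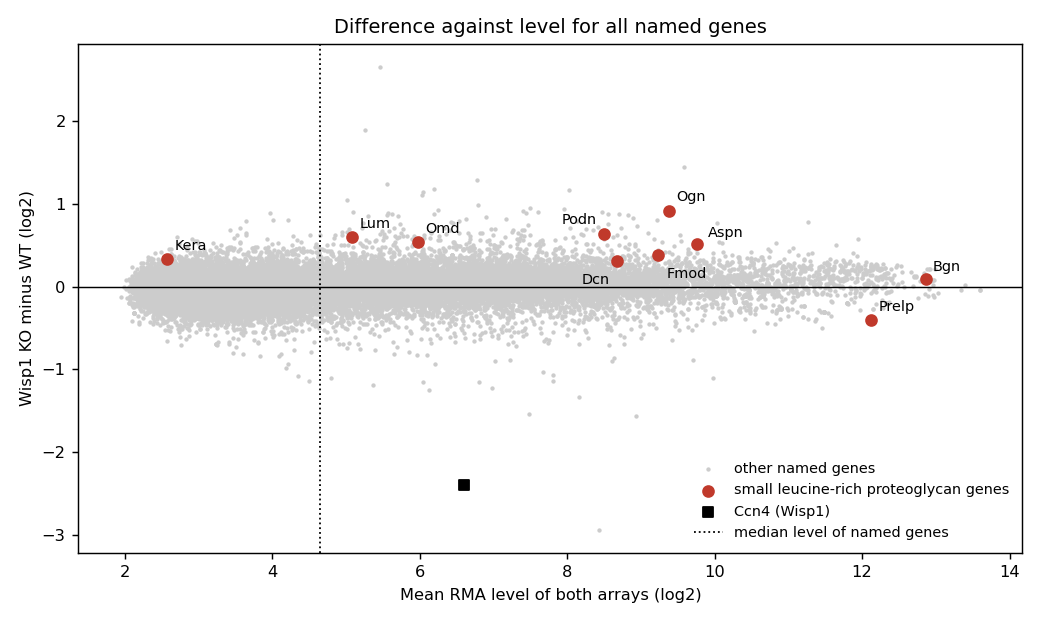
Wisp1 KO minus WT difference (log2) against the mean level of both arrays (log2) for every named gene (grey), with the 10 proteoglycan genes in red and Ccn4 (Wisp1) as a black square. The proteoglycan genes lie above 0 from the dim Kera to the bright Bgn, Prelp lies below 0, and Ccn4 is at -2.39.

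Other members of the family, which were not among the 10, differed little. Of 7 measured genes (Epyc, Optc, Chad, Chadl, Nyx, Podnl1 and Ecm2) none was past the limit in either direction, and their median was 0.04. Chadl, a chondroadherin-like gene of cartilage, had the largest difference, at 5.22 in Wisp1 KO and 5.08 in WT (0.15), and Podnl1, the closest relative of podocan, was at 5.13 in Wisp1 KO and 5.05 in WT (0.08). Epyc, Chad, Nyx and Ecm2 lay below the median level. None of the 7 was above 5.22 in Wisp1 KO or 5.08 in WT, and RMA, the processing used, compresses differences of dim genes. Tsku was not analysed here, as it had no transcript cluster with a single symbol.

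Several of the 10 genes sit side by side in the mouse genome, and neighbours could be compared through the gene order of the RefSeq table of GRCm38.p6. On chromosome 13 Aspn, Omd and Ogn follow each other, and all were higher in Wisp1 KO, by 0.52, 0.55 and 0.92. Ecm2, a related gene on their near side, was at 3.88 in Wisp1 KO and 3.84 in WT (0.04), and Nol8, a nucleolar protein gene on the far side, at 6.33 in Wisp1 KO and 6.46 in WT (-0.13). On chromosome 10 Dcn, Lum and Kera follow each other, with differences of 0.32, 0.60 and 0.34. The next family gene, Epyc, was dim at 2.77 in Wisp1 KO and 2.76 in WT, while Btg1, an antiproliferative gene on the other side of Dcn, was at 5.98 in Wisp1 KO and 5.40 in WT (0.58). On chromosome 1 Prelp and Fmod are neighbours in this gene order and differed in opposite directions, by -0.40 and 0.38, and Optc beside Prelp held the same value of 5.01 on both arrays. Bgn on the X chromosome and Podn on chromosome 4 have no family member among their nearest genes.

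Across all 10 loci, the 3 nearest named protein-coding genes on each side gave 30 neighbours outside the set. Of these 2 were past the limit as higher, Btg1 and Cpt2 (7.93 in Wisp1 KO and 7.42 in WT, 0.52), none as lower, and the median of the 30 was 0.04. The 15072 background genes had 3.89% past the limit as higher and 2.64% as lower. Only 18 of the 30 neighbours were at or above the median level. Cpt2, a mitochondrial enzyme of fatty acid oxidation, lies near Podn. Scp2 (0.29) and Echdc2 (0.27), also near Podn, were short of the limit.

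**Figure D4:**
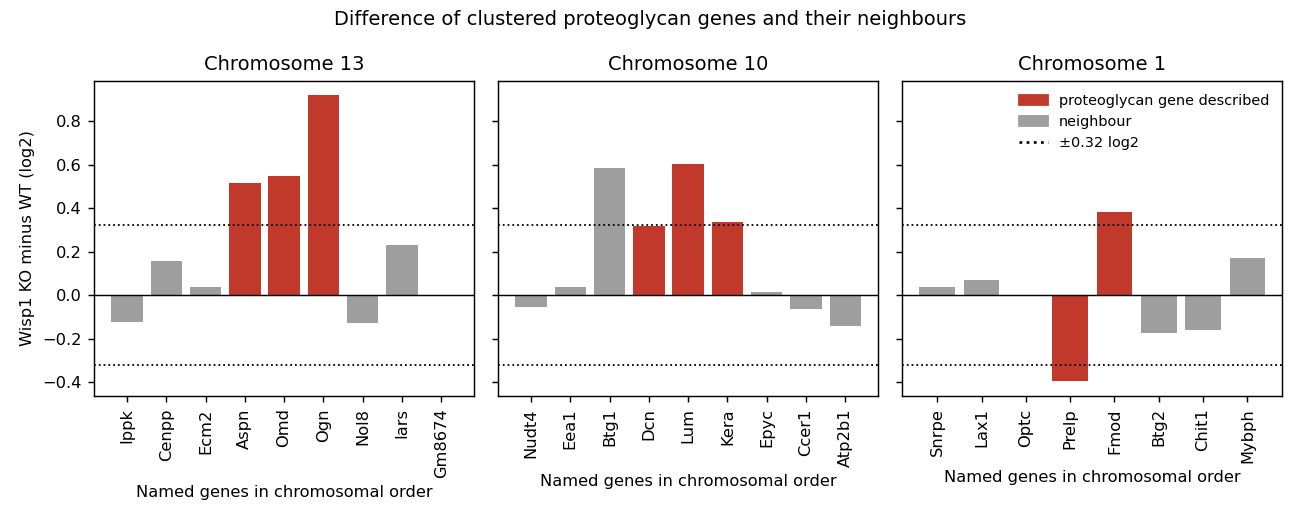
Wisp1 KO minus WT difference (log2) of the clustered proteoglycan genes (red) and their neighbours (grey) on chromosomes 13, 10 and 1, in chromosomal order with equal spacing and the limit of 0.32 as dotted lines. The red bars on chromosomes 13 and 10 all point up, those of Prelp and Fmod on chromosome 1 point in opposite directions, and Btg1 is the one grey bar past a dotted line.

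The sequences just before the transcription starts of the chromosome 13 cluster are shown because its 3 genes were higher together, with that of Prelp beside them as the gene that was lower. Each is the 250 bases before the start in RefSeq's GRCm38.p6, 5′ to 3′ on the gene's own strand, and capitals mark matches to the motifs named below on either strand.
Ogn, chr13:49607765-49608014, plus strand: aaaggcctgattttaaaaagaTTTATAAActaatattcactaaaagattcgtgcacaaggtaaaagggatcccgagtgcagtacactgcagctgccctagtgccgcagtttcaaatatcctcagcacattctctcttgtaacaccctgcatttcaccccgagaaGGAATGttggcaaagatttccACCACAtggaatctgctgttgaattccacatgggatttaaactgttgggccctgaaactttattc
Omd, chr13:49582212-49582461, plus strand: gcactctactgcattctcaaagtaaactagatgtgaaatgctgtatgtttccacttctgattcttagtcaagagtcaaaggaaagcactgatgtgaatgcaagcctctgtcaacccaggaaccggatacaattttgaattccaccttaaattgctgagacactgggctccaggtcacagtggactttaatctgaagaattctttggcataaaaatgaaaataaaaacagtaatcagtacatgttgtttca
Aspn, chr13:49544193-49544442, plus strand: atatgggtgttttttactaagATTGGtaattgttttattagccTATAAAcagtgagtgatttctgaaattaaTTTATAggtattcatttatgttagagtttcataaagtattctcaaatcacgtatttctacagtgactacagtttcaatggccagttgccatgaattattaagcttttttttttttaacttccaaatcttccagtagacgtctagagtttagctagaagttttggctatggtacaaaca
Prelp, chr1:133921402-133921651, minus strand: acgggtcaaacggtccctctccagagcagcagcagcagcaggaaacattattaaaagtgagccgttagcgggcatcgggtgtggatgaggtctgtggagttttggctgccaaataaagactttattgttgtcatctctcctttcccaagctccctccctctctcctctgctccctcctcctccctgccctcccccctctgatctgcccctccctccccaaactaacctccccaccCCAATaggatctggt

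Short motifs were searched on both strands of windows running from 250 bases before to 50 after the start, of which 8 of the 10 genes had at least 1 (all but Dcn and Lum, with 2 for Podn). No motif was shared by Ogn, Omd and Aspn, and Omd held none of those searched. The TATA box motif TATAAA lay in the windows of Ogn and Aspn and in 13.6% of all 32817 windows, in both genes well before the usual place of a TATA box, and the overlapping matches in Ogn form 1 run. The TEAD motif GGAATG matched Ogn alone among the 8 genes, against 14.7% of all windows. The RUNX motif TGTGGT likewise matched Ogn alone, against 16.8%. The CCAAT box motif, spelled as its name, lay in the windows of Aspn, Fmod (after the start), Kera and Prelp, with 37.4% of all windows. The GC box motif GGGCGG lay in those of Bgn and Podn, with 35.6%. None of the 8 genes held the AP-1 motif TGANTCA, which 7.81% of windows had. The same was true of the TCF/LEF motif CTTTGAT, found in 3.73% of windows, and of the SMAD motif GTCTAGAC, found in 0.213%. These matches are letters in a window and say nothing of which factor binds there.

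Collagens, the proteins that these proteoglycans bind, were higher as well. Of 14 collagen chains of the fibril and its surface, 10 were past the limit as higher and none as lower, with a median of 0.44 beside 0.45 for the 10 proteoglycan genes. The 15072 background genes had 3.89% past the limit as higher and 2.64% as lower. At 1.5-fold 2 of the 14 chains were higher, with a background of 0.717%. After quantile normalization or loess centring 9 chains were higher, as Col5a2 (0.33 as deposited) fell inside the limit (0.31 and 0.30). Col14a1, a fibril-associated collagen to which decorin binds, was at 8.61 in Wisp1 KO and 7.44 in WT (1.16, 2.24-fold), and Col6a2, a chain of the collagen VI that biglycan and decorin bind, at 9.09 in Wisp1 KO and 8.48 in WT (0.60, 1.52-fold). The main fibrillar chains Col1a1 (0.50), Col1a2 (0.52) and Col3a1 (0.43) were also past the limit, while Col12a1 (0.04) and Col11a2 (-0.02) were not. Of 20 proteoglycans of other families, 2 were past the limit as higher, Vcan (9.62 in Wisp1 KO and 8.82 in WT, 0.80) and the TGF-beta co-receptor gene Tgfbr3 (9.54 in Wisp1 KO and 9.12 in WT, 0.42), 1 as lower, Cspg4 (5.65 in Wisp1 KO and 6.01 in WT, -0.37), and the median was 0.03. Whether these shares differ between the lists could not be tested with 1 array per group.

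Most of the enzymes that build the sugar chains stayed inside the limit. Of the 15072 background genes, 3.89% were past the limit as higher and 2.64% as lower. Of 6 linkage region genes none was, in either direction (median -0.05), with Xylt1, which adds the first xylose, at 0.18 and B3galt6 at -0.12. Of 15 genes of chondroitin and dermatan sulfate synthesis 2 were higher and 1 lower (median -0.02). Chsy1, which extends the chain, was at 10.34 in Wisp1 KO and 9.79 in WT (0.55), Csgalnact1, which starts it, at 8.52 in Wisp1 KO and 8.01 in WT (0.51), and the sulfotransferase gene Chst7, dim, at 3.26 in Wisp1 KO and 3.77 in WT (-0.51). Of 8 genes of keratan sulfate synthesis none passed the limit and the median was -0.09. The sulfotransferase genes Chst1 and Chst2 had the lowest differences, -0.30 each, and Chst2 was past the limit as lower after quantile normalization or loess centring (-0.33 each). The 7 sulfate supply genes had no member past the limit and a median near 0, with the sulfate transporter gene Slc26a2 at 0.22 and Slc26a1 at -0.13.

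Genes that process or degrade the proteins had single members that differed. Tolloid-like proteases and BMP1 cut the propeptides of biglycan and osteoglycin. Tll1 was at 4.78 in Wisp1 KO and 5.97 in WT (-1.19, 2.28-fold lower), while Bmp1, whose protein does the same work, was at 9.95 in Wisp1 KO and 9.74 in WT (0.20) and the enhancer gene Pcolce differed by 0.03. The median over 10 proteases known to cut these proteoglycans was 0.07. Among them Mmp13, dim, was at 4.35 in Wisp1 KO and 3.82 in WT (0.52). Mmp3 was at 7.39 in Wisp1 KO and 8.08 in WT (-0.68).

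The lists of receptors and ligands of these proteoglycans had medians below 0. Of 12 receptors 8 had negative differences, beside 6021 of the 15072 background genes and 14278 of all 30142 named genes. The background past the limit was 3.89% for higher and 2.64% for lower. The receptors had a median of -0.13, with none past the limit as higher and 1 as lower. That gene was Met, the receptor of hepatocyte growth factor, which decorin binds, at 4.81 in Wisp1 KO and 5.24 in WT (-0.42), while Egfr, another decorin receptor, was at 9.95 in Wisp1 KO and 9.63 in WT (0.31). Of 12 bound growth factors and matrix proteins 3 were past the limit as lower and none as higher, with a median of -0.11. They were Ccn4 itself, the tenascin gene Tnxb (6.26 in Wisp1 KO and 6.71 in WT, -0.45) and Bmp2, dim (3.82 in Wisp1 KO and 4.19 in WT, -0.36). Ccn4 is the gene deleted in the knockout, so its place in this count and median says nothing of the other genes. After quantile normalization or loess centring the receptor gene Cd44 also passed the limit as lower (-0.34 each, -0.30 as deposited), and after quantile normalization alone the fibronectin gene Fn1 passed it as higher (0.35, 0.25 as deposited). The TGF-beta ligands differed by 0.17 (Tgfb1), -0.27 (Tgfb2) and -0.28 (Tgfb3).

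**Figure D5:**
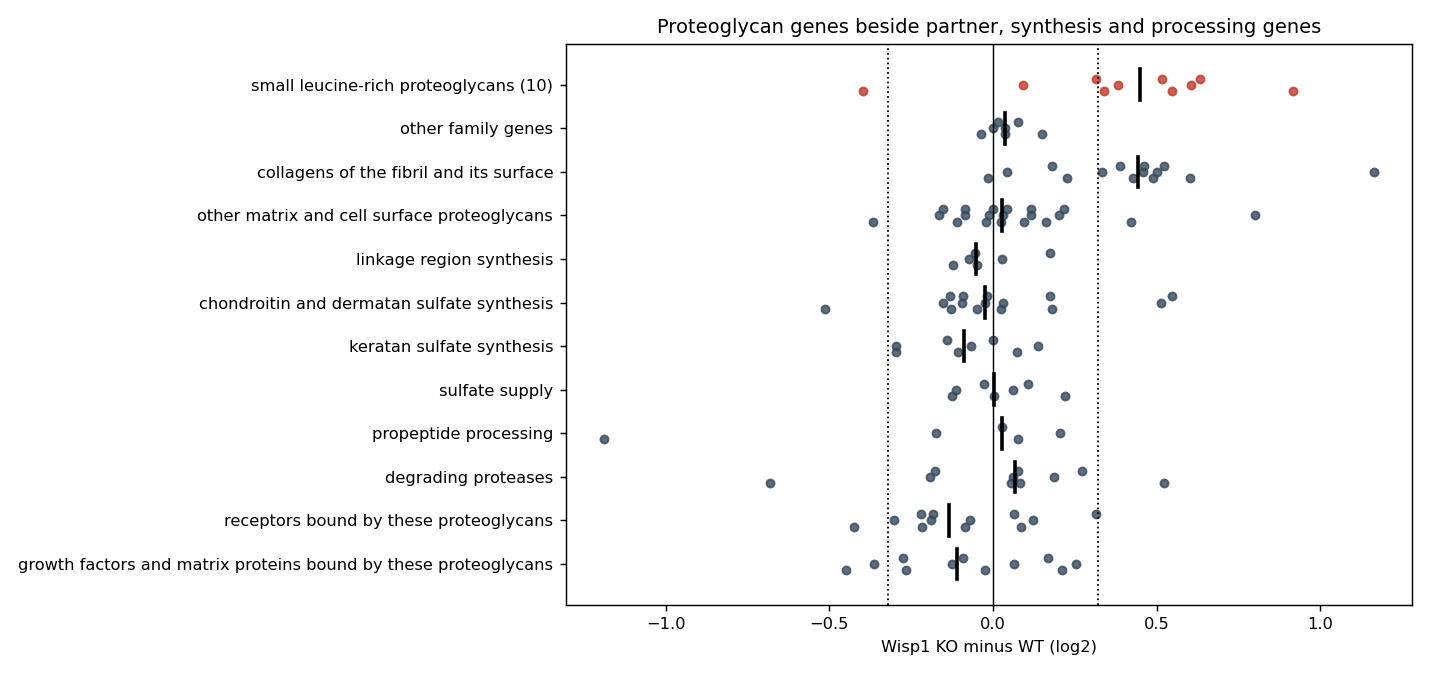
Wisp1 KO minus WT difference (log2) of each measured gene (points) in the 10 proteoglycan genes (red) and in related gene lists (dark), with list medians as black bars, the limit of 0.32 as dotted lines, and Ccn4 left out of the points in the lowest list but kept in its median. The medians of the 10 genes (0.45) and of the collagens (0.44) lie right of the upper dotted line, and those of all other lists shown lie between -0.13 and 0.07.

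Markers of other cells differed between the arrays beside these genes, and their part in the differences was not tested. Past the limit were 3.89% of the 15072 background genes as higher and 2.64% as lower. The marker lists also hold genes below the median level, which lie outside that background. At or above the median level were 5 of 10 macrophage, 5 of 6 tendon cell and 7 of 10 pericyte and smooth muscle markers. In bulk RNA, a change in the share of a cell type and a change in RNA per cell cannot be told apart. Of 10 macrophage markers 5 were past the limit as higher and none as lower, with a summed level (log2 of the sum of linear values) of 8.88 in Wisp1 KO and 8.22 in WT, led by Lyz2 (7.43 in Wisp1 KO and 6.14 in WT) and Fcer1g (6.02 in Wisp1 KO and 5.13 in WT), with Ctss, dim, at 4.82 in Wisp1 KO and 4.20 in WT (0.63). Their defining receptor genes Adgre1 (3.25 in Wisp1 KO and 3.33 in WT) and Csf1r (4.62 in Wisp1 KO and 4.61 in WT) were below the median level. Of 6 tendon cell markers 3 were higher and none lower (Col14a1, Tnmd and Egr1), with a summed level of 10.05 in Wisp1 KO and 9.22 in WT, and Tnmd, a membrane protein of tendon cells, was at 8.43 in Wisp1 KO and 7.50 in WT. The tendon transcription factor genes Scx and Mkx differed by 0.09 and -0.03. Of 10 pericyte and smooth muscle markers 1 was higher and 3 lower, and Mcam (-0.69) and Myh11 (-0.51) differed most. Their summed level was 13.07 in Wisp1 KO and 13.25 in WT. Such a sum weighs bright genes most, here Acta2 (12.70 in Wisp1 KO and 12.83 in WT). After quantile normalization or loess centring the pericyte marker Notch3 also passed the limit as lower (-0.35 and -0.34, -0.31 as deposited).

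The same background shares, 3.89% higher and 2.64% lower, apply to the remaining lists. At or above the median level were 4 of 9 adipocyte, 1 of 7 endothelial and 7 of 10 chondrocyte markers. So were 2 of 6 osteoblast, 0 of 7 lymphocyte and 6 of 8 stromal fibroblast markers. Of 9 adipocyte markers 2 were lower, Retn (-1.08) and Adipoq (-0.64), both dim, with a summed level of 8.48 in Wisp1 KO and 8.66 in WT. Of 7 endothelial markers 2 were higher, Cdh5 and Emcn (0.80 each), both dim, with a summed level of 7.21 in Wisp1 KO and 7.06 in WT, while Pecam1 differed by 0.08. Of 10 chondrocyte markers 1 was higher, Sox9 (0.37), the summed level was 10.07 in Wisp1 KO and 9.87 in WT, and Acan and Col2a1 differed by 0.12 and 0.18. The 6 osteoblast markers (7.23 in Wisp1 KO and 7.25 in WT) and the 7 lymphocyte markers (6.36 in Wisp1 KO and 6.34 in WT) had none past the limit. The genes that differed most in them were Bglap (-0.18) and Dmp1 (-0.11) among the osteoblast markers and Cd79a (0.28) and Ms4a1 (-0.25) among the lymphocyte markers. Of 8 stromal fibroblast markers 1 was lower, S100a4 (-0.65), Eng was at -0.21, and the summed level was 12.95 in Wisp1 KO and 13.02 in WT.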

How the data were processed

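RNA of cultured adipose-derived stromal cells was labelled with the Affymetrix GeneChip WT PLUS kit, per the labels' protocols, and measured on 1 array for Wisp1 KO and 1 for WT. The authors deposited 1 log2 value for each transcript cluster, which came from RMA run in Partek, per the submitters' processing notes. Versions, the arrays normalized together and the build of the array design are not given in the sources used here. RMA makes arrays alike in distribution and compresses differences of dim genes.

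Of 65956 transcript clusters 30604 listed 1 distinct gene symbol, 2146 several (left out) and 33206 none in the platform's annotation, which can be old. Old symbols were replaced by matching Entrez IDs to RefSeq genes of GRCm38.p6 (22818 found, 827 changed), a table used only for names, chromosomes and gene order. The cluster with the highest mean stood for a gene, giving 30142 genes. Of 212 list entries 199 were measured.

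Differences are Wisp1 KO minus WT, with no further normalization and no test. Members, lists and settings were chosen with earlier results of these data known. The genes named are all 10 members, Wisp1, and in each list those at least 1.5-fold different and at least the 2 that differed most. The rule also covers the neighbours at each locus, of which those not named are given by count and median. Others named beside their lists, such as Col1a1 and Scx, were chosen after their values were seen. Protein features planned for the members were not analysed here. The counting was checked on simulated arrays with known shifts. Alternatives are given in the closing section. Tables were handled in Python 3.11.15 with pandas 2.3.3 and numpy 2.4.6, the loess came from statsmodels 0.14.6 and plots from matplotlib 3.10.9.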

Additional observations from a re-analysis of the deposited data

How the results depend on the processing

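Every one of the 10 proteoglycan genes kept its sign, and moved by under 0.1 log2, under quantile normalization and loess centring. Median centring, averaging over clusters and keeping clusters with several symbols left their values unchanged. Median centring could not move them, as the median difference over all transcript clusters was 0. Averaging could not either, as each gene had 1 cluster with a single symbol. The lowest values were 0.88 for Ogn, after quantile normalization, and 0.28 for Dcn, after loess centring, and Prelp ranged from -0.40 to -0.38. The count of 7 higher and 1 lower was the same under these settings, and over the 9 genes at or above the median level it was 6 and 1, a setting chosen after seeing the data. At 1.5-fold it was 3 higher and 0 lower, and at 2-fold 0 and 0. Of the 15072 background genes, 586 were higher and 398 lower, against 108 and 70 at 1.5-fold and 10 and 15 at 2-fold. With no filter on level, 819 of all 30142 named genes were higher and 922 lower, so that lower ones outnumbered higher ones. Some list counts moved by scaling: after both quantile normalization and loess centring, those past the limit as lower were 1 keratan sulfate synthesis gene, against 0 as deposited, and 2 receptors, against 1, and after quantile normalization 1 bound growth factor or matrix protein was higher, against 0. Both settings also gave 9 collagens past the limit as higher, against 10, and 4 pericyte and smooth muscle markers as lower, against 3. Of genes past the limit, 59.6% were higher as deposited, 46.7% after quantile normalization and 48.8% after loess centring. Using means of lists instead of medians, propeptide processing was at -0.21 and bound growth factors and matrix proteins at -0.27. Adipocyte markers were at -0.24 and endothelial markers at 0.24. The most extreme values in these lists, in the same order, were Tll1 (-1.19), Ccn4 (-2.39), Retn (-1.08) and Cdh5 (0.80). Means without them were not taken, and the cause was not tested. The filter on level does not enter the members' counts. No paired analysis was possible because each group had 1 array, and no array could be left out.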
